A study of Sus scrofa domesticus with 11 samples.

Results

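Interferon-stimulated genes are the antiviral and immune genes that a cell switches on after it senses interferon. A set of 37 such genes was looked up by symbol in the deposited gene table of 22029 genes, and 33 were found. All 33 passed the filter on low counts, which left 13671 genes for testing. Where a symbol had more than 1 gene identifier, the one with the highest summed count was used. DDX58, IFIT3, GBP1 and XAF1 did not match by symbol. The set was chosen with earlier results of the same data known, so no test was run over it as a whole.

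The libraries came from livers of preterm Yorkshire piglets on parenteral nutrition, taken on day of life 15. SEFA-6179, a code name for a compound, was given to 5 piglets at 48 mg/kg. The 6 control piglets were given MCT at 3 ml/kg as an isovolumetric vehicle, and the abbreviation is used in the study for medium-chain triglyceride. Each library was taken as 1 animal from the design text. The sources used here do not give sex, litter or sequencing batch, and bulk liver RNA cannot tell fewer cells of a type apart from less RNA per cell.

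Type I and type III interferons bind receptors at the cell surface and activate the kinases JAK1 and TYK2. These phosphorylate STAT proteins such as STAT2, which joins IRF9 in a complex that enters the nucleus and binds promoters of interferon-stimulated genes. The proteins made then detect viral RNA, block viral translation, degrade RNA, trap virions or tag proteins with ISG15. In liver, both hepatocytes and the immune cells of the sinusoids can respond in this way.

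MCT replicate 5 stood apart from the other 10 libraries. MCT replicate 5 had the highest level of 11 libraries in 31 of 33 members, whereas it was the highest in 17.7% of all tested genes. It held at least 2 times the level of the next library in 18 of 33 members, against 1.25% of all genes, at least 4 times in 7, against 0.234%, and at least 10 times in 3, against 0.0293%. The median member stood at 6.44 times its typical level in MCT replicate 5, where typical is the median over the other 10 libraries, with 0.5 CPM added to each level. The same library held 18814 CPM in the 33 members together, and without scaling they made up 1.76% of its gene counts. Summed levels in the SEFA-6179 livers were 2490, 741, 1369, 2657 and 1558 CPM, and in the other MCT livers 1274, 1357, 4314, 1097 and 2187 CPM. CPM is the count over the library total, with TMM factors to even out composition between libraries. Where fold changes are given below, they are given both with all libraries and without MCT replicate 5. The edgeR run without it was planned beforehand, and the members were chosen with earlier results of these data known. The counts for MCT replicate 5 here are therefore no independent test.

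**Figure D1:**
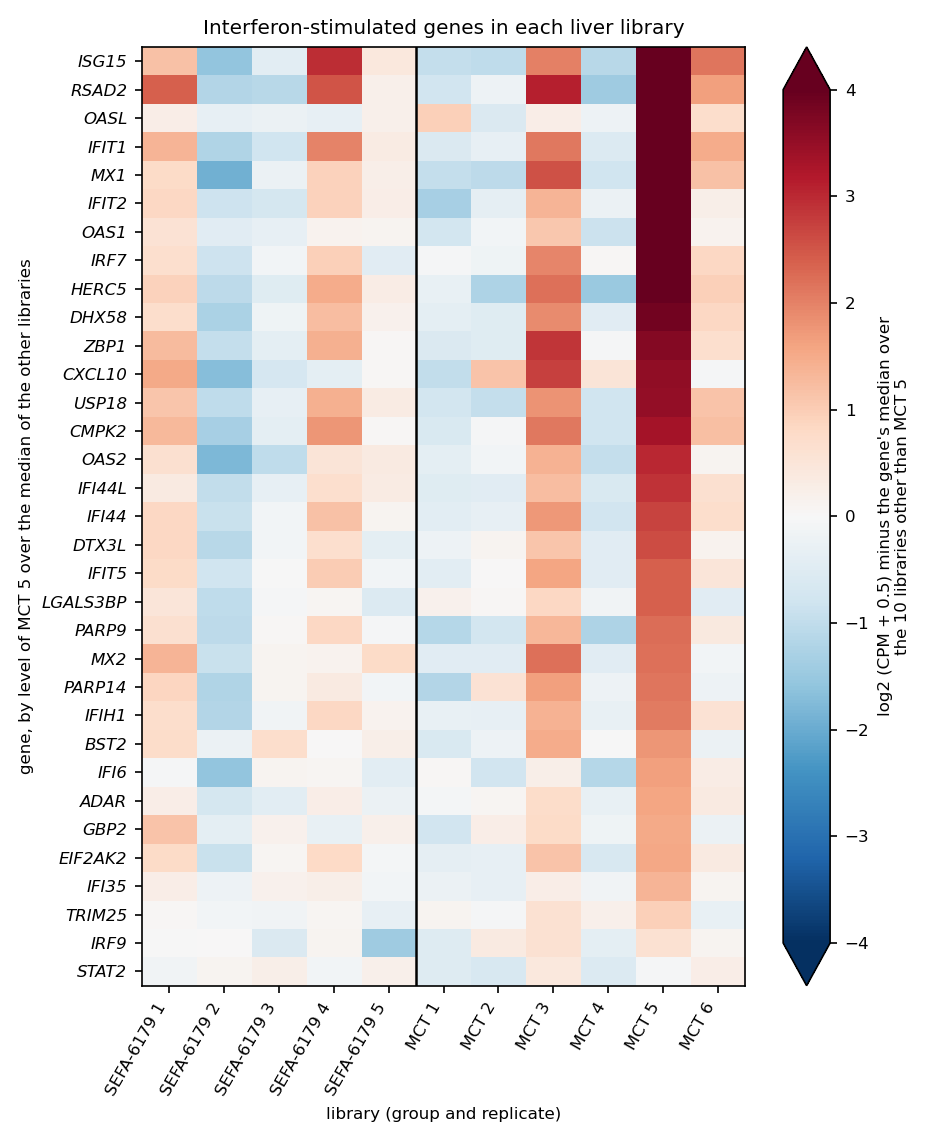
Heat map of the 33 interferon-stimulated genes (down the page, from the highest to the lowest ratio in MCT replicate 5) in the 5 SEFA-6179 and 6 MCT libraries (across). Colour is log2 (CPM + 0.5) minus the gene's median over the 10 libraries other than MCT replicate 5, with colours ending at 4 and -4. MCT replicate 5 is the highest library in 31 genes, MCT replicate 3 is the highest of the others in 28, and SEFA-6179 replicate 2 is lowest in 21 of the 33.

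No member passed the test between SEFA-6179 and MCT. With edgeR's quasi-likelihood test and Benjamini-Hochberg adjustment over all genes, 0 of 33 members reached an adjusted p under 0.05, against 0.219% of all tested genes. At an unadjusted p under 0.05 there were 2 of 33, OASL and IRF7, against 10.8% of all genes. Without robust estimation edgeR put 6 of 33 there, against 11% of all genes, and called 0. DESeq2 called 0 members, against 2.02% of all genes, and put 4 at an unadjusted p under 0.05, against 12% of all genes. These were IRF7, MX1, CXCL10 and ADAR. DESeq2 gave no p for 5 members, ISG15, RSAD2, IFIT2, OAS1 and OASL, against 0.241% of all genes. These 5 could not be called by it. limma with library weights called 0, against 0.439%, and put 0 at an unadjusted p under 0.05, against 14.1%. According to the authors' deposited table, 0 of 33 had an adjusted p under 0.05, against 1.16% of its genes. The same 5 members have no p there and could not be called either. The groups overlapped in every member, with 0 of 33 apart, against 1.49% of all genes, and without MCT replicate 5 again 0 of 33, against 2.47%.

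Although no member was called, the fitted differences leaned to one side. With all 11 libraries the log2 fold change of SEFA-6179 over MCT was below 0 in 32 of 33 members, against 50.2% of all genes, and below -1 in 15 of 33, against 2.24%. The median over the members was -0.97, from -4.0 for OASL to 0.19 for STAT2, and the median over all genes was -0.0015. Without MCT replicate 5 it was below 0 in 24 of 33, against 49.7% of all genes, and below -1 in 1 of 33, against 1.86%. The median of the members was then -0.14, from -1.06 for CXCL10 to 0.33 for ISG15, with 0 of 33 called, against 0.221% of all genes, and 0 at an unadjusted p under 0.05, against 12.3%. With library weights in limma, which give less weight to libraries far from their group, the median with all 11 libraries was -0.05, and without MCT replicate 5, a run chosen after seeing the data, it was 0.18.

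The direction also turned on the summary used. The median level in SEFA-6179 livers was above the median of all 6 MCT livers in 11 of 33 members, and above the median of the 5 MCT livers without replicate 5 in 23 of 33. The standard error of the log2 fold change was smaller without MCT replicate 5 in 31 of 33 members. The log2 fold change was smaller in size than its standard error in 7 members with all libraries and in 27 without MCT replicate 5. No share over all genes is given beside these counts, and the members share their libraries. The counts are therefore descriptive only.

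**Figure D2:**
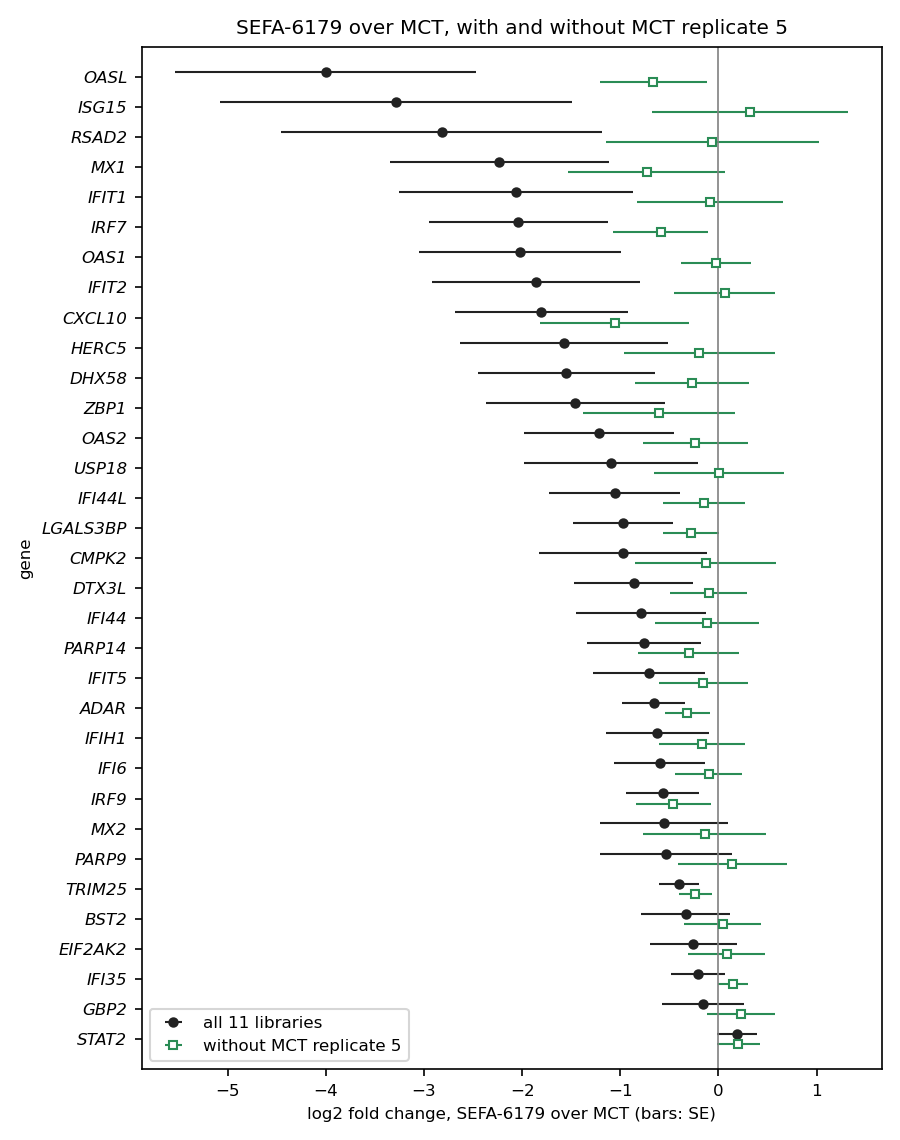
Log2 fold change of SEFA-6179 over MCT (x axis) for each of the 33 members (down the page), from edgeR with all 11 libraries and without MCT replicate 5; bars are 1 standard error. With all libraries 32 estimates lie below 0, and without MCT replicate 5 27 of the 33 lie within 1 standard error of 0.

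Sensors of foreign nucleic acid start the response. IFIH1 encodes MDA5, a cytoplasmic sensor of long double-stranded RNA, and DHX58 encodes LGP2, a helicase that regulates it. DHX58 had 24.4, 5.83, 13.0, 35.4 and 16.8 CPM in SEFA-6179 livers, against a lowest level of 10.4 CPM, a median of 19 CPM and a highest of 220 CPM in MCT livers. The highest was MCT replicate 5, while the other 5 MCT livers, up to 55.9 CPM, overlapped the SEFA-6179 range. Its log2 fold change was -1.55 ± 0.90 (SE), adjusted p = 0.574 in edgeR, and -0.27 ± 0.58 without MCT replicate 5. ZBP1, a sensor of Z-form nucleic acid, had 6.53 to 36.1 CPM in SEFA-6179 livers, 98.3 CPM in MCT replicate 3 and 175 CPM in MCT replicate 5. In that library IFIH1 reached 114 CPM and EIF2AK2, the kinase PKR that halts translation on double-stranded RNA, 130 CPM. The other MCT livers had 8.58 to 98.3 CPM of ZBP1, 21.4 to 71.7 CPM of IFIH1 and 28.5 to 97.8 CPM of EIF2AK2. SEFA-6179 livers had 11.6 to 47.6 CPM of IFIH1 and 23.7 to 78.2 CPM of EIF2AK2, overlapping these ranges. MCT replicate 5 exceeded the median of the other 10 libraries by 14.8 times in DHX58, 13.3 times in ZBP1, 4.23 times in IFIH1 and 2.93 times in EIF2AK2.

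The transcription factors of the response differed widely from each other. IRF7, which amplifies the production of type I interferon, had 45.2, 15.7, 25.7, 54.2 and 20.5 CPM in SEFA-6179 livers. MCT livers had a lowest level of 24.9 CPM, a median of 39.8 CPM and a highest of 553 CPM, in replicate 5. The next MCT liver, replicate 3, had 111 CPM, and the remaining 4 lay within the SEFA-6179 range. The log2 fold change was -2.04 ± 0.91 (SE), unadjusted p = 0.049 and adjusted p = 0.458 in edgeR, and over the alternatives run its adjusted p lay between 0.241 and 0.800. Without MCT replicate 5 it was -0.59 ± 0.48 (adjusted p = 0.686). STAT2, which carries the signal from the receptor to the nucleus, had 47.1, 56.7, 61.9, 48.1 and 60.2 CPM in SEFA-6179 livers, against a lowest level of 33.0 CPM, a median of 43.4 CPM and a highest of 70.5 CPM in MCT livers. It was the 1 member below its typical level in MCT replicate 5, at 0.966 times the median of the other 10 libraries, and with all libraries it had the 1 fold change above 0, 0.19 ± 0.20 (SE, adjusted p = 0.792, edgeR), or 0.20 ± 0.21 (adjusted p = 0.760) without MCT replicate 5. The STAT2 gene overlaps PAN2 on the same strand, with mean counts of 949 and 916, so the split of counts between them is uncertain. IRF9, the DNA-binding partner of STAT2, lay between 0.801 and 4.85 CPM in all libraries. The IRF9 gene overlaps REC8 on the same strand, so its few counts are uncertain.

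ISG15 and the enzymes that attach or remove it differed widely in range. ISG15, a ubiquitin-like protein joined to other proteins after interferon, had 83.6, 12, 27.3, 291 and 49.8 CPM in SEFA-6179 livers. MCT livers had a lowest level of 16.8 CPM, a median of 84.7 CPM and a highest of 5051 CPM, in replicate 5. SEFA-6179 replicate 4 was the highest of the other 10 libraries, ahead of MCT replicates 6 and 3 at 166 and 151 CPM, so that the groups overlapped fully apart from MCT replicate 5. In the coordinates of the deposited table, whose build is not named, the gene lies on the plus strand at chr6:63363173-63364208 (ENSSSCG00000040575). MCT replicate 5 was 131 times the median of the others. Per length, ISG15 was at 7967 FPKM there, rank 8 of all genes of that library, and at rank 113 at best in any other. Its log2 fold change was -3.29 ± 1.79 (SE, adjusted p = 0.546, edgeR) with all libraries and 0.33 ± 1.00 (adjusted p = 0.934) without MCT replicate 5, the opposite sign.

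HERC5, the ligase that joins ISG15 to targets in humans, had 5.72 to 35.1 CPM in SEFA-6179 livers and 214 CPM in MCT replicate 5. USP18, the protease that removes ISG15 and damps receptor signalling, had 8.84 to 49.6 CPM in SEFA-6179 livers and 213 CPM in that library. The other MCT livers had 4.03 to 57.8 CPM of HERC5 and 9.26 to 64.5 CPM of USP18. The log2 fold changes of HERC5 and USP18 were -1.57 and -1.09, and -0.20 and 0.0042 without MCT replicate 5. TRIM25, the ubiquitin ligase that activates RIG-I, varied least of the 4. It had 88.3, 79.6, 78.7, 91.2 and 68.8 CPM in SEFA-6179 livers, against a lowest level of 70.4 CPM, a median of 96.0 CPM and a highest of 167 CPM in MCT livers. MCT replicates 5 and 3 were its 2 highest libraries. The log2 fold change was -0.40 ± 0.20 (SE, adjusted p = 0.496, edgeR), or -0.23 ± 0.16 without MCT replicate 5. The TRIM25 gene lies within the span of COIL on the same strand, with mean counts of 1805 for TRIM25 and 104 for COIL.

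Among the IFIT proteins, IFIT1 binds viral RNA that lacks the cap modification of host messages. IFIT1 had 188, 31.1, 41.9, 289 and 92.5 CPM in SEFA-6179 livers, against a lowest level of 49.1 CPM, a median of 132 CPM and a highest of 2532 CPM in MCT livers. The highest was again MCT replicate 5, followed by MCT replicate 3 at 320 CPM and SEFA-6179 replicate 4. The log2 fold change was -2.06 ± 1.19 (SE, adjusted p = 0.573, edgeR) and -0.09 ± 0.74 without MCT replicate 5. IFIT2 had 39.7, 12.2, 13.5, 42.6 and 26.9 CPM in SEFA-6179 livers, against a lowest level of 8.49 CPM, a median of 22.6 CPM and a highest of 457 CPM in MCT livers. IFIT2 thus had the higher median with SEFA-6179, and its log2 fold change of -1.86 ± 1.06 (SE) became 0.07 ± 0.51 without MCT replicate 5. IFIT5 had 20.7 to 74.2 CPM in SEFA-6179 livers, 26.5 to 110 CPM in the other MCT livers and 192 CPM in MCT replicate 5. Its log2 fold change was -0.71, or -0.15 without MCT replicate 5. IFIT1 and IFIT2 overlap LIPA, a lysosomal lipase gene with a mean count of 3395, on the opposite strand, and whether the counting used strand is not stated in what was at hand.

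Oligoadenylate synthetases sense double-stranded RNA and make a short nucleotide messenger. OASL, a family member that lacks this enzyme activity in humans, was close to undetected outside MCT replicate 5. It had 0.795, 0.347, 0.414, 0.357 and 0.739 CPM in SEFA-6179 livers, against a lowest level of 0.216 CPM, a median of 1.01 CPM and a highest of 47.4 CPM in MCT livers. Those CPM are 844 counts in MCT replicate 5 and between 5 and 32 counts in each other library, and OASL ranked 1 among all 13671 tested genes by the ratio of MCT replicate 5 to the next library. Its log2 fold change was -4.0 ± 1.53 (SE), unadjusted p = 0.0248 and adjusted p = 0.363 in edgeR, with adjusted p between 0.283 and 0.872 over the alternatives. Without MCT replicate 5 it was -0.66 ± 0.54 (adjusted p = 0.681).

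OAS2 had 282, 51.9, 89.5, 258 and 233 CPM in SEFA-6179 livers, against a lowest level of 93.4 CPM, a median of 182 CPM and a highest of 1471 CPM in MCT livers. Its log2 fold change was -1.22 ± 0.76 (SE, adjusted p = 0.608, edgeR) and -0.23 ± 0.54 without MCT replicate 5. OAS1 had 9.47 to 19.98 CPM in SEFA-6179 livers and 267 CPM in MCT replicate 5, 20.1 times the median of the other libraries. Its log2 fold change of -2.02 ± 1.03 (SE, adjusted p = 0.515, edgeR) was -0.02 ± 0.36 without MCT replicate 5. The OAS1 gene lies within the span of OAS2 on the same strand, so the split of counts between them is uncertain.

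MX1, a dynamin-like GTPase that traps viral nucleocapsids, had 103, 15.7, 51.4, 114 and 71.6 CPM in SEFA-6179 livers. MCT livers had a lowest level of 29.3 CPM, a median of 85.8 CPM and a highest of 1414 CPM, in replicate 5, with 360 CPM in replicate 3. The log2 fold change was -2.23 ± 1.12 (SE, adjusted p = 0.508, edgeR) and -0.73 ± 0.80 (adjusted p = 0.773) without MCT replicate 5. MX2, its paralog, did not single out MCT replicate 5: it had 14.4 to 69.5 CPM in SEFA-6179 livers, 125 CPM in MCT replicate 5 and 125 CPM in MCT replicate 3.

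**Figure D3:**
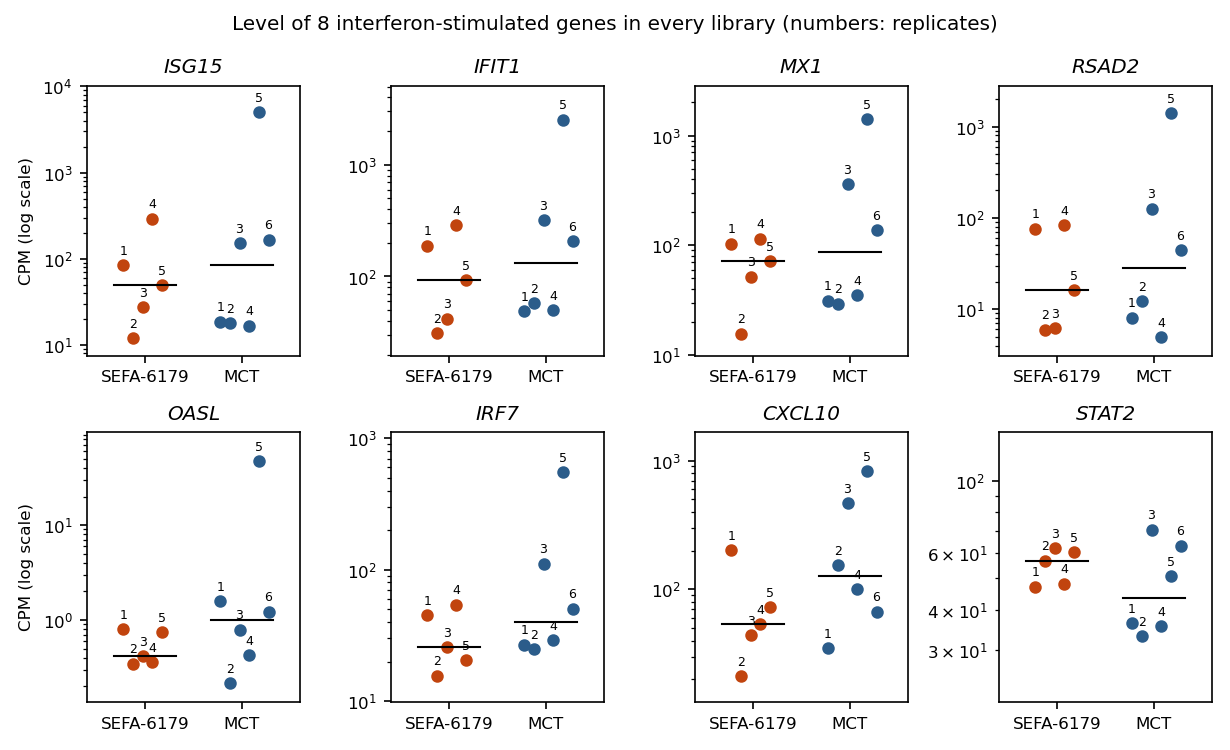
Levels (CPM, log axis) of 8 members in each library, SEFA-6179 at the left and MCT at the right of each panel; points are libraries and the line is the group's median. Numbers are replicates. MCT replicate 5 is the top point for 7 genes, at 5051 CPM for ISG15, and not for STAT2, and the other points of both groups overlap.

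Among the other effectors, RSAD2 and CMPK2 lie 5769 bases apart on chromosome 3. RSAD2 encodes viperin, which makes a chain-terminating nucleotide, and CMPK2 is a nucleotide kinase. RSAD2 had 76.1, 5.95, 6.2, 83.0 and 16.1 CPM in SEFA-6179 livers, against a lowest level of 4.93 CPM, a median of 28.3 CPM and a highest of 1390 CPM in MCT livers. Even among the 10 libraries without MCT replicate 5 its level spanned 25.5-fold, the widest of the members, with MCT replicate 3 at 126 CPM on top and SEFA-6179 replicates 4 and 1 next. The log2 fold change was -2.82 ± 1.64 (SE, adjusted p = 0.575, edgeR) and -0.06 ± 1.09 without MCT replicate 5. CMPK2 had 9.36 to 84.2 CPM in SEFA-6179 livers, 13.7 to 107 CPM in the other MCT livers and 249 CPM in MCT replicate 5. Its log2 fold change was -0.97, or -0.13 without MCT replicate 5.

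IFI44 and IFI44L, paralogs with antiviral activity, had at most 75.3 and 89.9 CPM in SEFA-6179 livers, against 217 and 428 CPM in MCT replicate 5. The other MCT livers had 19.6 to 112 CPM of IFI44 and 37.0 to 135 CPM of IFI44L. The log2 fold changes were -0.79 and -1.06, and -0.11 and -0.15 without MCT replicate 5. IFI6, a small membrane protein of mitochondria and endoplasmic reticulum, had the highest median FPKM of the members in each group without MCT replicate 5, and it was the 1 member among the 100 highest FPKM values of another library. It had 103 to 333 CPM in SEFA-6179 livers, 140 to 375 CPM in the other MCT livers and 958 CPM in MCT replicate 5. LGALS3BP, a secreted glycoprotein that binds galectins, had 68.7 to 192 CPM in SEFA-6179 livers and 721 CPM in MCT replicate 5. The other MCT livers had 100 to 244 CPM of it. The log2 fold change of LGALS3BP was -0.97, or -0.28 without MCT replicate 5.

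BST2, or tetherin, holds budding virions at the membrane, and ADAR edits double-stranded RNA. BST2 had 16.9 to 33.7 CPM in SEFA-6179 livers, against 69.1 CPM in MCT replicate 5 and 57.1 CPM in MCT replicate 3. ADAR had 32.7 to 65.1 CPM in SEFA-6179 livers and 161 CPM in MCT replicate 5. The other MCT livers had 13.1 to 57.1 CPM of BST2 and 43.1 to 88.9 CPM of ADAR. The log2 fold changes of BST2 and ADAR were -0.33 and -0.66, and 0.04 and -0.32 without MCT replicate 5. IFI35 had 18.7 to 26.1 CPM in SEFA-6179 livers and 16.9 to 25.8 CPM in the other MCT livers, the narrowest range among the 10 libraries at 1.55-fold, with 55.7 CPM in MCT replicate 5.

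PARP9 and DTX3L, which act as a pair in ubiquitin and ADP-ribose signalling, lie 14 bases apart on opposite strands of chromosome 13. The PARP9 gene overlaps KPNA1 on the same strand, with mean counts of 319 and 808, so the split of counts between PARP9 and KPNA1 is uncertain. PARP9 had 5.49 to 21.6 CPM and DTX3L 7.22 to 29.5 CPM in SEFA-6179 livers, against 58.2 and 101 CPM in MCT replicate 5. The other MCT livers overlapped these ranges, with 4.79 to 30.7 CPM of PARP9 and 11.8 to 35.8 CPM of DTX3L. The log2 fold changes were -0.54 and -0.86, and 0.14 and -0.10 without MCT replicate 5. PARP14, a mono-ADP-ribosyltransferase, had 15.1 to 64.7 CPM in SEFA-6179 livers, 157 CPM in MCT replicate 5 and 111 CPM in MCT replicate 3. Its lowest level in MCT livers was 15.5 CPM. GBP2, a guanylate-binding GTPase, had 6.70 to 20.3 CPM in SEFA-6179 livers and 5.01 to 26.6 CPM in MCT livers. GBP2 overlaps GBP1 on the opposite strand, which had the higher mean count of the pair, 1378 against 217.

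CXCL10, the chemokine that draws T cells through CXCR3, had the lowest fold change when MCT replicate 5 was left out. It had 202, 21.1, 44.0, 53.7 and 72.6 CPM in SEFA-6179 livers, against a lowest level of 34.7 CPM, a median of 127 CPM and a highest of 827 CPM in MCT livers. MCT replicate 3 followed at 464 CPM and SEFA-6179 replicate 1 came after it, so the groups overlapped. The log2 fold change was -1.80 ± 0.88 (SE, adjusted p = 0.495, edgeR) and -1.06 ± 0.76 (adjusted p = 0.633) without MCT replicate 5, with adjusted p between 0.328 and 0.755 over the alternatives.

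The ratio of MCT replicate 5 to the median of the other libraries differed widely among the members. It was at least 10 in 14 members, led by ISG15 at 131 times, RSAD2 at 98.4 times, OASL at 81.3 times, IFIT1 at 33.7 times and MX1 at 23 times. In 7 members, EIF2AK2, IRF9, STAT2, TRIM25, ADAR, IFI35 and GBP2, the ratio was under 3. By role, the median ratio was 20.2 over the 3 IFIT genes, 20.1 over the 3 OAS genes, 8.76 over the 4 sensors and 4.90 over PARP9, PARP14 and DTX3L. These ratios describe 1 library and have no replicate error. Nothing was added to the levels, so the ratio of OASL rests on very low levels in the other libraries.

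MCT replicate 3 came second. Among the 10 libraries without MCT replicate 5 it was the highest in 28 of 33 members, against 8.11% of all genes, with a median of 2.98 times the median of the other 9. RSAD2 at 10.3 times, ZBP1 at 7.83, MX1 at 7.01 and CXCL10 at 6.92 led there. The order of genes differed between both libraries. OASL was 59.9 times, ISG15 33.5 times and RSAD2 11 times higher in MCT replicate 5 than in MCT replicate 3, whereas 7 members, among them MX2, PARP14, BST2 and EIF2AK2, lay within 1.5 times of each other.

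**Figure D4:**
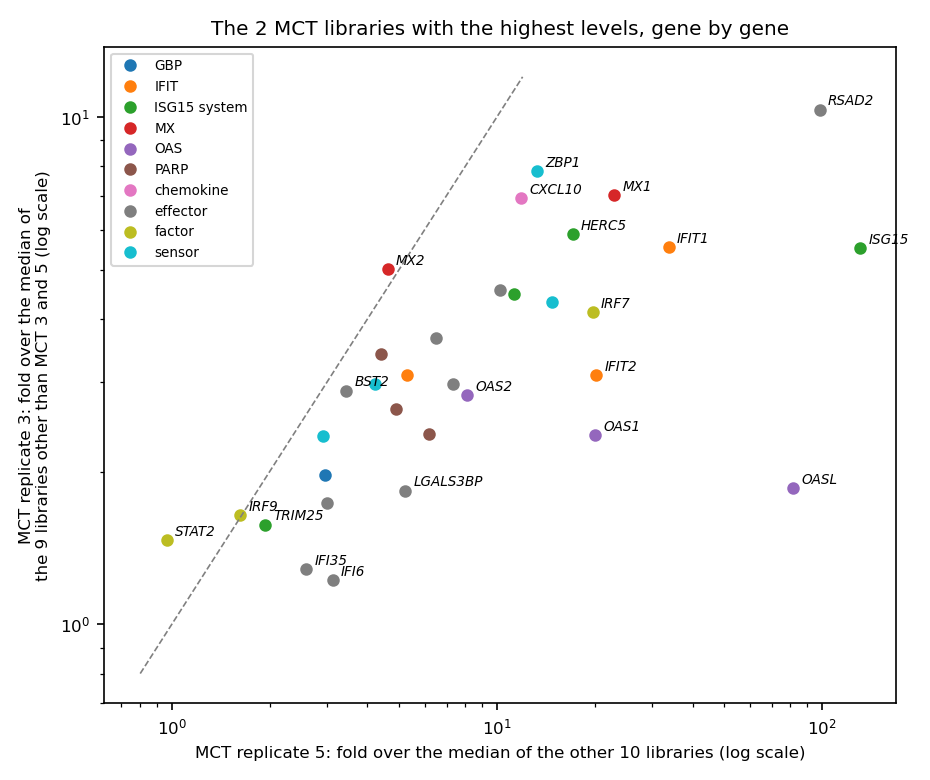
Ratio of each member's CPM in MCT replicate 5 to the median of the other 10 libraries (x axis) and in MCT replicate 3 to the median of the 9 libraries without both (y axis), on log axes; the dashed line marks equal ratios and colours mark roles. OASL, ISG15 and RSAD2 lie farthest to the right of the line, and STAT2, IRF9 and MX2 lie left of it.

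The other 9 libraries varied as well, on both sides of the comparison. The median member stood at 1.69, 0.502, 0.884, 1.61 and 1.09 times its typical level in SEFA-6179 replicates 1 to 5. In MCT replicates 1, 2, 4 and 6 it stood at 0.712, 0.792, 0.733 and 1.29 times, and in MCT replicate 3 at 2.65 times. SEFA-6179 replicate 2 was the lowest of the 10 libraries without MCT replicate 5 in 21 of 33 members, against 12.1% of all genes. MCT replicate 3 with SEFA-6179 replicates 1 and 4 made up the 3 highest of those 10 in 13 of 33 members, against 1.0% of all genes. In 8 members the range over those 10 libraries was at least 10-fold, among them ISG15 at 24.3-fold, MX1 at 23-fold and CXCL10 at 22.0-fold.

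The deposited statistics treat 5 members apart. ISG15, RSAD2, IFIT2, OAS1 and OASL have no p-value in the authors' deposited table, where their adjusted p is listed as 1. Such entries make up 0.213% of that table, 47 genes, and MCT replicate 5 is the highest library in 31 of them. DESeq2 1.42.0, which withholds the p-value of genes with an outlying count, likewise gave no p for 5 members, against 0.241% of all genes, and without MCT replicate 5 for 0 of 33, against 0.0886%.

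The rest of the pathway was counted from lists, beside which stand the shares of all tested genes: 0.219% called and 10.8% at an unadjusted p under 0.05 in edgeR. Of 8 interferon ligand genes, 3 matched, IFNK, IFNG and IFNA1. They passed no filter, had 0 counts in MCT replicate 5, and summed to at most 0.454 CPM in SEFA-6179 livers and 0.396 CPM in the other MCT livers. At the depth of that library, a count of 0 allows a level of up to 0.158 CPM of the library total (3 counts, counting error only), so RNA of these 3 genes was not detectable there at this depth. The other 5 ligand genes, among them IFNB1, IFNL1 and IFNL3, did not match and were not analysed here. Among 6 receptor genes 0 were called and 0 had an unadjusted p under 0.05, and the median log2 fold change was -0.22 with all libraries and -0.07 without MCT replicate 5.

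Of 10 kinases and transcription factors 0 were called, against 0.219% of all genes, and 2 had an unadjusted p under 0.05, against 10.8%. STAT3, a factor of the interleukin-6 response, had a log2 fold change of 0.55 ± 0.22 (SE, adjusted p = 0.371, edgeR) and of 0.49 without MCT replicate 5 (adjusted p = 0.414). IRF2, which can repress interferon genes, had -0.34 ± 0.16 (SE, adjusted p = 0.442, edgeR) and -0.19 without MCT replicate 5 (adjusted p = 0.502). Of 12 sensors and adaptors 0 were called and 1, TRAF3, had an unadjusted p under 0.05, while MCT replicate 5 was highest in 4, against 17.7% of all genes. TLR3, the endosomal receptor for double-stranded RNA, was at 25.6 to 40.1 CPM in SEFA-6179 livers, 28.9 to 47.7 CPM in the other MCT livers and 119 CPM in that library. Of 8 negative regulators 0 were called and 0 had an unadjusted p under 0.05, with a median log2 fold change of 0.15, or 0.18 without MCT replicate 5.

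Further interferon-induced genes outside the set were also high in MCT replicate 5. Of 32 such genes tested 0 were called, against 0.219% of all genes, and 2 had an unadjusted p under 0.05, MOV10 and IFI30, against 10.8%. MCT replicate 5 was the highest library in 26 of the 32, against 17.7% of all genes, and at least 2 times the next in 12, against 1.25%. IFITM3, which blocks viral entry at endosomes, was at 103 to 498 CPM in SEFA-6179 livers, 133 to 408 CPM in the other MCT livers and 1613 CPM in MCT replicate 5. The median log2 fold change was -0.57 with all libraries and -0.02 without MCT replicate 5. Of 12 genes more typical of interferon gamma 0 were called and 0 had an unadjusted p under 0.05, with a median log2 fold change of -0.46, or 0.06 without MCT replicate 5. MCT replicate 5 was highest in 8 of them. CXCL11, a further CXCR3 ligand, was at most 5.85 CPM in SEFA-6179 livers and 31.2 CPM in MCT replicate 5.

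A pair of set members without a symbol in the table could be read by identifier through a reference list. RIGI, the current symbol of DDX58, had 2.67 to 5.60 CPM in SEFA-6179 livers, 0.844 to 3.26 CPM in the other MCT livers and 6.29 CPM in MCT replicate 5. Its log2 fold change was 0.67 ± 0.47 (SE, adjusted p = 0.654, edgeR) and 1.15 ± 0.41 (adjusted p = 0.270) without MCT replicate 5, opposite in sign to most members. GBP1 had 26.5 to 116 CPM in SEFA-6179 livers, 15.0 to 139 CPM in the other MCT livers and 159 CPM in MCT replicate 5. Both were read after the set was fixed and are not counted among the 33.

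Markers of cells a piece of liver can hold were summed in each library. Hepatocyte markers summed to 107758 to 195481 CPM in SEFA-6179 livers, 74488 to 152706 CPM in the other MCT livers and 180698 CPM in MCT replicate 5. ALB made up 120964 CPM of the last value. MCT replicate 5 was the highest library for 0 of these 8 markers, against 17.7% of all genes. It was the lowest for 1, CPS1, at 268 CPM against 628 to 1498 CPM in SEFA-6179 livers and 946 to 2512 CPM in the other MCT livers. Macrophage markers summed to 143 to 2473 CPM in SEFA-6179 livers, 590 to 1444 CPM in the other MCT livers and 275 CPM in MCT replicate 5. Of 7 markers of plasmacytoid dendritic cells only TCF4, IRF8, SPIB and BCL11A matched, without the surface markers CLEC4C, IL3RA and LILRA4. They summed to 18.5 to 35.9 CPM in SEFA-6179 livers, 17.5 to 31.8 CPM in the other MCT livers and 30.3 CPM in MCT replicate 5. IRF8, which other immune cells also express, made up 22.3 CPM of the last value, so the sum is a poor measure of these cells. T and NK cell markers summed to 13.7 to 43.2 CPM with SEFA-6179, 12.6 to 40.9 CPM in the other MCT livers and 13.9 CPM in MCT replicate 5. Heat shock genes summed to 1078 to 3060 CPM in SEFA-6179 livers, 1445 to 1817 CPM in the other MCT livers and 3193 CPM in MCT replicate 5. A list of acute phase and NF-kappaB genes summed to 568 to 4954 CPM with SEFA-6179, 327 to 1344 CPM in the other MCT livers and 677 CPM in MCT replicate 5. CRP, its 1 matched acute phase protein, had 430 to 4707 CPM with SEFA-6179, 146 to 959 CPM in the other MCT livers and 361 CPM in MCT replicate 5. No gene of these lists was called, and the part of these cells and stress genes in the interferon-stimulated levels was not tested.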

How the data were processed

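RNA of 11 piglet livers was sequenced, 5 with SEFA-6179 and 6 with MCT. The deposited table, per the file headers, holds a raw read count per gene and library, an FPKM value, and a normalized signal, which the authors gave also as group means. It further holds the authors' log2 fold change and p-value with its adjusted form. DESeq2 1.20.0, featureCounts 1.5.0-p3, HISAT2 2.0.5 and StringTie 1.3.3b are named in the submitters' processing notes, with no role. Genome build, annotation and strand setting were not given in the sources used here, so reads of genes that overlap on opposite strands cannot be separated.

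Depth ran from 16821201 to 19215097 counts in SEFA-6179 libraries, and between 15974977 and 23416071 in MCT libraries. No libraries agreed within sampling noise (lowest chi-square per degree of freedom 41.9, MCT replicates 2 and 4). Counts were tested in R 4.3.3 with edgeR 4.0.16: filterByExpr with a minimum count of 10, TMM, robust quasi-likelihood test of SEFA-6179 against MCT, two-sided, Benjamini-Hochberg adjustment over all 13671 genes, threshold 0.05. Standard errors were computed from fold change and F statistic. The p-values measure the spread between these libraries only. Ratios to the next library that define counts or ranks, and levels relative to typical, use 0.5 CPM added to both. Other ratios to a median, ratios of MCT replicate 5 to MCT replicate 3 and ranges have nothing added. Alternatives were DESeq2 1.42.0, limma 3.58.1 with library weights, other scalings and filters, a replicate block and leaving out libraries. The code was tested on simulated counts. The members, roles and lists were chosen with earlier results of these data known. Every member was named by role, for pathway lists at most 4 genes, and 10 other genes by their ratio in MCT replicate 5. Symbols missing from the table came from a reference list by identifier. Some genes of these lists are not reported here, and sequences were not analysed here.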

Additional observations from a re-analysis of the deposited data

Results flagged for a closer look

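In 66 groups of values (33 members in each treatment group), 20 had 1 library far from the others by Dixon's 95% limit, and chance gives about 1 in 20 groups, or 3.3 here. MCT replicate 5 was that library in 17 of the 20. It stood apart from the other MCT livers in DHX58 at 220 CPM, IRF7 at 553 CPM, ISG15 at 5051 CPM, USP18 at 213 CPM, HERC5 at 214 CPM, IFIT1 at 2532 CPM, IFIT2 at 457 CPM and OAS1 at 267 CPM. The same held for OAS2 at 1471 CPM, OASL at 47.4 CPM, MX1 at 1414 CPM, RSAD2 at 1390 CPM, IFI6 at 958 CPM, IFI44L at 428 CPM, IFI35 at 55.7 CPM, LGALS3BP at 721 CPM and DTX3L at 101 CPM. The members share their libraries, so these are not independent. The limit was applied to CPM without a log scale, and the members were chosen with earlier results of these data known. The number of 3.3 is therefore no test of the 20.

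The other 3 were SEFA-6179 livers. SEFA-6179 replicate 4 stood above its group in ISG15 at 291 CPM. SEFA-6179 replicate 1 stood above its group in GBP2 at 20.3 CPM and in CXCL10 at 202 CPM.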

How the results depend on the processing

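Over 18 alternatives none of the 594 member values passed the threshold, and 25 values in 14 members changed sign. DESeq2 gave no p for 5 of these values, against 0.241% of all genes, so those 5 could not pass. With library weights in limma, the log2 fold change of SEFA-6179 over MCT was above 0 for BST2 (0.14), CMPK2 (0.10), EIF2AK2 (0.20), GBP2 (0.24), HERC5 (0.38), IFI35 (0.10), IFI44 (0.13), IFIT2 (0.0501), ISG15 (0.29), MX2 (0.19), OAS1 (0.0919), PARP9 (0.53), RSAD2 (0.35) and USP18 (0.30). Without SEFA-6179 replicate 4 and MCT replicate 5 it was above 0 for BST2 (0.12), GBP2 (0.35) and IFI35 (0.12). Leaving out 1 library at a time, the log2 fold change ranged from -0.49 to 0.04 for BST2, -0.42 to 0.0831 for EIF2AK2, -0.51 to 0.23 for GBP2, -0.31 to 0.15 for IFI35, -2.10 to 0.0659 for IFIT2, -4.38 to 0.33 for ISG15, -0.74 to 0.14 for PARP9 and -1.41 to 0.0042 for USP18. The upper end came each time without MCT replicate 5. The median over the members ranged from -1.13 to -0.14 in these runs, was -0.36 without both libraries, and was -0.05 with limma's weights. The weights were not examined further and the cause was not tested. Both groups share replicate numbers 1 to 5, and deviations of same-numbered libraries correlated at -0.06, 0.06, 0.20, -0.15 and -0.0044. The sources do not pair same-numbered animals, and whether they shared a litter or batch was not tested. With a replicate block 0 members were called, the median was -0.57, and 8 genes were called over the whole table. That run tested 13513 genes, as did the run without MCT replicate 6, which has no same-numbered SEFA-6179 library. Without MCT replicate 6 and without the block, 40 genes were called and the median was -1.04. The run with all 11 libraries tested 13671 genes and called 30, so it is no match for the block. Over the whole table, edgeR called 0 genes without SEFA-6179 replicate 5 or without MCT replicate 4, 1 without MCT replicate 1, 9 without SEFA-6179 replicate 1 or MCT replicate 2, up to 53 without SEFA-6179 replicate 3, and DESeq2 called 276. DESeq2 and limma with weights were run without MCT replicate 5 after seeing the data, with medians of -0.14 and 0.18. These runs are not among the 18 alternatives. The log2 fold change was above 0 for 9 of 33 members in DESeq2 and for 26 of 33 in limma. The medians over all tested genes were 0.0012 and -0.0020. The promoter comparison that had been planned was not run.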

Other observations

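Outside the set, tested genes with a mean normalized count of at least 10 were ordered by the ratio of MCT replicate 5 to the next library. Those named here are among the 10 highest. UBE2L6, the conjugating enzyme that passes ISG15 to its ligase, was at 276 CPM in MCT replicate 5 and at most 47.3 CPM elsewhere. HES4 was at 115 CPM, against at most 13.5 CPM, and it neighbours ISG15 on chromosome 6, 6707 bases away. The same list held BTC, a ligand of the epidermal growth factor receptor, at 40.8 CPM, and TNFSF18, a ligand of the TNF family, at 13.9 CPM. SPINT1, an inhibitor of serine proteases, was at 67.8 CPM, against at most 5.84 CPM. The muscle genes MYO18B and MYOM1 were at 15.6 and 81.0 CPM, GUCA1A at 12.3 CPM and NCOA7 at 55.2 CPM.

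By this ratio, 4 of the 10 highest and 11 of the 50 highest of the 13671 tested genes were members. That is 22% of those 50 and 33.3% of the members, while members made up 0.241% of the tested genes.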
